A study of Mus musculus with 2 samples.

Results

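G-MDSC 1 is the name the authors gave to 272 of 10050 annotated leukocytes from YUMM1.7 melanomas, 126 in the APOE4 library and 146 in the APOE2 library. The cells were taken by that name in the deposited cell table and joined by barcode to the count matrices. YUMM1.7 is a mouse melanoma line, here grown from cells injected with Matrigel into the flanks of knock-in mice whose APOE gene is the human APOE4 or the human APOE2 allele. Tumours were taken on day 19, CD45+ DAPI- cells (living leukocytes) were sorted from 6 mice per genotype, and the cells of a genotype were pooled into 1 droplet library. Both groups share the line, the host design and the sort, and the cells of single mice cannot be told apart. With 1 library per genotype there is no replicate, so no test between genotypes was possible. Each 95% interval in square brackets covers counting error only, and a difference between APOE4 and APOE2 is one between these 2 libraries.

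G-MDSC stands for granulocytic myeloid-derived suppressor cell, a name for cells of the neutrophil lineage that tumours draw in and that can restrain T cells. Neutrophils fill their granules in the bone marrow in a fixed order, with primary, then secondary, then tertiary granule proteins, and shut off the early granule genes as they mature. Mature cells carry the receptor for the growth factor G-CSF (Csf3r) and the chemokine receptor Cxcr2, which lets them leave the marrow. Neutrophils also respond to interferons: type I interferons act through a site called the ISRE, and interferon gamma through a site called GAS, at the genes they switch on.

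The label matched its markers. Values are CPM, the gene's UMIs (counted RNA molecules) per 1000000 UMIs summed over the cells of a label in 1 library. G-MDSC 1 had the highest CPM of the authors' 26 labels, over both libraries, for all 4 of its given markers, which describes the label and is not a test. Csf3r stood at 2665 CPM in APOE4 and 2727 CPM in APOE2 (645 and 710 UMIs), against 1678 and 1371 CPM in M-MDSC 1, 1721 and 1395 CPM in M-MDSC 2, and 212 and 216 CPM in G-MDSC 2. Lrg1, a secreted glycoprotein kept in neutrophil granules, was at 1178 and 1237 CPM, at least 2.39 times the level in any of the other MDSC labels. Nlrp12, an intracellular sensor that damps inflammation, was at 178 and 196 CPM. Steap4, a metalloreductase, was at 306 and 138 CPM. Cxcr2 was also highest in G-MDSC 1, at 1707 and 1521 CPM. Csf3r and Cxcr2 were thus present in the labels named M-MDSC as well, at lower levels.

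Secondary granule genes stood far lower in G-MDSC 1 than in G-MDSC 2, and higher than in the M-MDSC labels. The 14 secondary granule genes summed to 7674 CPM in APOE4 and 7325 CPM in APOE2, against 1954 and 1868 CPM in M-MDSC 1, 3122 and 1635 CPM in M-MDSC 2, and 105703 and 104075 CPM in G-MDSC 2. Lcn2, an iron-trapping protein of these granules, was at 1211 and 1391 CPM in G-MDSC 1, against 194 and 247 CPM in M-MDSC 1. Of the 10 primary granule and progenitor genes, 6 (Mpo, Elane, Prtn3, Ctsg, Ms4a3 and Bpi) had 0 UMIs in both libraries, and Cd63, which many cell types share, was the single one with at least 20 UMIs. Ltf (lactoferrin), which fills secondary granules, had 0 UMIs in both libraries, against 8653 CPM in APOE4 and 8698 CPM in APOE2 for G-MDSC 2. Camp, an antimicrobial peptide of the same granules, had 0 UMIs in APOE4 and 2 in APOE2, against 29472 and 29880 CPM in G-MDSC 2. Ngp, another secondary granule protein, had 82.6 and 65.3 CPM, against 3.76 and 2.27 CPM in M-MDSC 1 and 23813 and 24784 CPM in G-MDSC 2. The gelatinase Mmp9, of the last granules to form, was at 1645 and 1721 CPM in G-MDSC 1, near the 1809 and 1298 CPM of G-MDSC 2. The cycling markers Mki67 and Top2a had 0 UMIs in G-MDSC 1 in both libraries, and G-MDSC 2 of APOE4 had 116 CPM of Mki67.

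The alarmins were at a level between those of the other labels. S100a9, a calcium-binding alarmin that with S100a8 makes up much of the neutrophil cytosol, was at 80136 CPM in APOE4 and 78263 CPM in APOE2. That was above M-MDSC 1 (22289 and 25667 CPM) and below G-MDSC 2 (158105 and 144477 CPM). S100a8 was at 47135 and 46269 CPM, and the 2 genes together made 10.6% and 11.3% of the UMIs of the median cell. Retnlg, a resistin-like secreted protein of neutrophils, was at 6248 and 7652 CPM, against 209 and 341 CPM in M-MDSC 1 and 21475 and 17352 CPM in G-MDSC 2. The surface marker Ly6g was at 112 and 177 CPM in G-MDSC 1, against 936 and 739 CPM in G-MDSC 2. The plot of levels in the MDSC labels shows this order, with G-MDSC 1 highest for receptors and between the others for S100a9 and Retnlg.

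**Figure D1:**
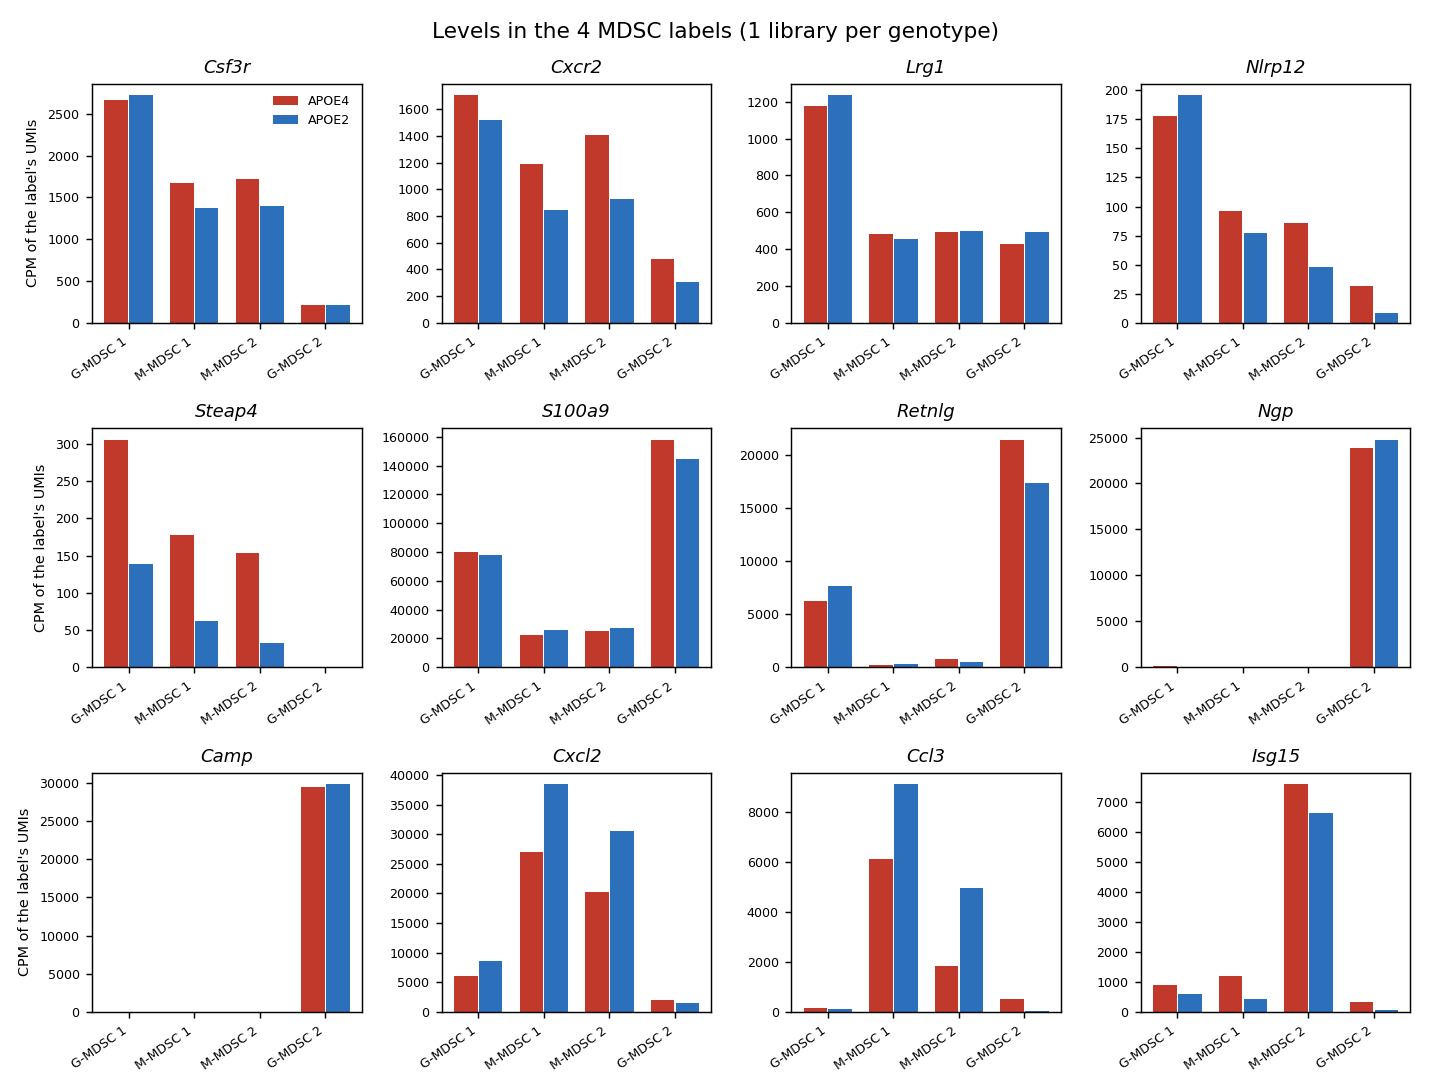
Levels of 12 genes in the 4 MDSC labels, in CPM of the label's UMIs on linear axes from 0, red bars for APOE4 and blue bars for APOE2. Csf3r, Cxcr2, Lrg1, Nlrp12 and Steap4 are highest in G-MDSC 1, S100a9, Retnlg, Ngp and Camp in G-MDSC 2, and Cxcl2, Ccl3 and Isg15 in an M-MDSC label.

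Depth was alike in the libraries. G-MDSC 1 held 241988 UMIs in APOE4 and 260326 UMIs in APOE2, with medians of 1781.5 and 1704 UMIs and 780.5 and 717.5 genes per cell, far below the 5623 and 7278 UMIs per cell of G-MDSC 2. The median cell had 0.283% and 0.271% of its UMIs from mitochondrial genes. The label was 2.34% [1.95, 2.78] of annotated cells in APOE4 and 3.13% [2.65, 3.67] in APOE2, and 15.8% and 20.1% of the 4 MDSC labels. Genes that define the MDSC labels differ between the libraries, so no ratio of these shares is given. No G-MDSC 1 barcode occurred in both libraries, and 8 barcodes of annotated cells did. 

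RNA of other cell types was low by most marker lists. B cell markers had 0 UMIs in both libraries, mast cell markers 0 and 1, T cell markers 4 and 14, NK cell markers 6 and 2, dendritic cell markers 2 and 13, eosinophil markers 7 and 3, erythroid and platelet markers 1 and 3, and stromal and tumour markers 6 and 9. The 10 macrophage markers summed to 165 and 242 CPM, which is 1.08% and 1.38% of their sum in Mø cluster 1. The 10 monocyte markers summed to 1227 and 995 CPM, against 8184 and 6088 CPM in Monocytes 2, the label where they were highest. F13a1, Ms4a4c, Cx3cr1 and Ace among them had 0 UMIs in both libraries. A UMI of a monocyte marker was found in 71.4% of cells in APOE4 and 71.2% in APOE2, and of a macrophage marker in 24.6% and 30.1%.

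Against the other 3 MDSC labels, 30 of 3007 genes were at least 2-fold higher in G-MDSC 1 than in each of them in both libraries (0.998%), and 31 were at least 2-fold lower (1.03%). These genes helped to form the label, so they describe it. The 10 with the largest smallest fold over the 6 comparisons were Dck, Hdac4, Cpd, Adam19, Pi16, Tmem43, Scnn1a, Xpc, Ttc7 and Slc2a3, and each was highest in G-MDSC 1 of all 26 labels. Dck, the kinase that salvages deoxynucleosides, was at 302 and 303 CPM, against 85.2 and 63.5 CPM in M-MDSC 1. Hdac4, a histone deacetylase of class IIa, was at 273 and 315 CPM, against 78.9 and 72.5 CPM in M-MDSC 1. Cpd, a carboxypeptidase, was at 401 and 323 CPM, and at least 3.37 times the level of each other MDSC label. Its largest fold, 20.1, rests on 1 UMI in M-MDSC 2 of APOE2, which held 36 cells. Dck and Scnn1a had 0 UMIs there and were set to 3 counts. G-MDSC 2 held 28 cells in APOE4 and 29 in APOE2. Slc2a3, a glucose transporter, was at 773 and 588 CPM, against 278 and 199 CPM in M-MDSC 1 and 264 and 220 CPM in G-MDSC 2. Xpc, which recognises DNA damage, was at 86.8 and 119 CPM, against at most 31.9 CPM in any other MDSC label, and Scnn1a, a sodium channel subunit, was at 136 and 134 CPM, against at most 44.5 CPM.

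The 10 lowest by the same rule were Bst2, Inhba, Dock10, Klhl6, Krtcap2, Ly6a, Npm1, F10, Capg and Alyref. Inhba, a subunit of the secreted factor activin, had 0 UMIs in G-MDSC 1 in both libraries, against 199 and 135 CPM in M-MDSC 1. Bst2 (tetherin), an interferon-induced protein that holds budding viruses, had 6 and 2 UMIs, 24.8 and 7.68 CPM, against 442 and 385 CPM in M-MDSC 2 and 180 and 51.9 CPM in G-MDSC 2. Npm1 and Alyref, which serve ribosome assembly and mRNA export, were at 4.13 and 30.7 CPM and at 8.26 and 19.2 CPM, each the lowest of the 26 labels over both libraries. Capg, a protein that caps actin filaments, was at 62.0 and 42.3 CPM, against 215 and 248 CPM in M-MDSC 1.

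Cytokine and chemokine genes stood lower than in M-MDSC 1 and higher than in G-MDSC 2. The 26 cytokine and chemokine genes summed to 28192 CPM in APOE4 and 29816 CPM in APOE2, against 73649 and 89095 CPM in M-MDSC 1 and 7331 and 6062 CPM in G-MDSC 2. Il1b, the inflammasome cytokine, was at 16848 and 15557 CPM, against 28586 and 23918 CPM in M-MDSC 1. Cxcl2, a neutrophil attractant, was at 5992 and 8558 CPM, against 26986 and 38481 CPM in M-MDSC 1. Ccl3, an attractant for monocytes and T cells, was at 145 and 119 CPM, against 6099 and 9118 CPM in M-MDSC 1. Ccl6 differed from these, at 3120 and 3012 CPM in G-MDSC 1 and 864 and 2126 CPM in M-MDSC 1. Cd274, which encodes the checkpoint ligand PD-L1, was at 57.9 and 65.3 CPM, against 374 and 265 CPM in M-MDSC 1.

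Between the libraries, 25 of 1360 genes with at least 50 UMIs were at least 2-fold higher in APOE4 (1.84%) and 13 were at least 2-fold lower (0.956%). Over the 2656 genes with at least 20 UMIs the median log2 ratio was 0.020, with 1378 genes higher and 1278 lower. The label's own markers were among those that stood close, with Csf3r at a ratio of 0.977 [0.877, 1.09] and Lrg1 at 0.952 [0.809, 1.12], except Steap4, which was 2.21-fold higher [1.47, 3.39] in APOE4 (74 and 36 UMIs). Steap4 was also higher in APOE4 in M-MDSC 1, at 178 and 62.3 CPM, and had 0 UMIs in G-MDSC 2 of both libraries.

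**Figure D2:**
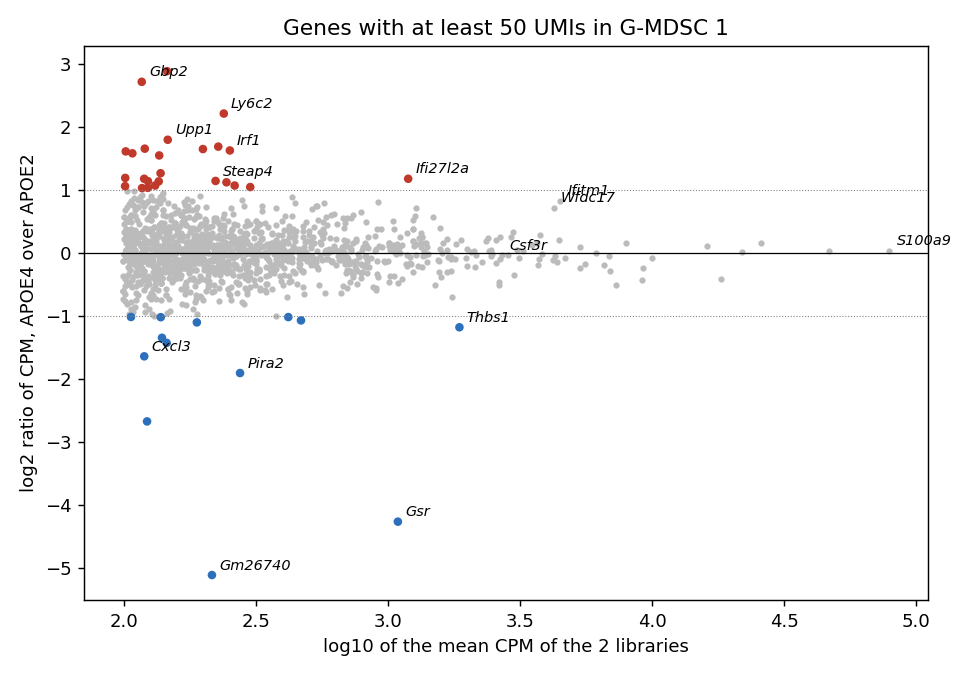
Each point is a gene with at least 50 UMIs in G-MDSC 1, placed by the log10 of its mean CPM over both libraries and by its log2 ratio of CPM (APOE4 over APOE2). Red points are at least 2-fold higher in APOE4, blue points at least 2-fold lower, and Gsr and Gm26740 lie far below the rest. Gm26740 is drawn with the APOE4 count at 3.

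Several interferon-response genes were among those furthest above equal in APOE4. Genes were ranked by the bound of the interval nearest 1, leaving out those under 10% of the CPM of their highest label. The 10 ranked furthest above equal were Irf1, Upp1, Irf7, Ifi27l2a, Slfn5, Tmpo, Ifitm1, Usp25, Trafd1 and Wfdc17. Gbp2, Rsad2 and Ly6c2, given below, had nearer bounds above that of Irf1 but were left out by the 10% rule. Irf1, a transcription factor that interferon gamma induces, had 380 CPM in APOE4 and 123 CPM in APOE2 (92 and 32 UMIs), 3.09-fold higher [2.05, 4.78]. Irf7, which amplifies type I interferon signals, had 302 and 96.0 CPM, 3.14-fold higher [1.97, 5.16]. Ifi27l2a, an interferon-induced mitochondrial protein, had 1653 and 730 CPM, 2.26-fold higher, and Ifitm1, which blocks viral entry, had 5740 and 3223 CPM, 1.78-fold higher [1.63, 1.94]. Slfn5, of the Schlafen family, had 182 and 57.6 CPM, and Trafd1, a feedback regulator of innate signals, 153 and 49.9 CPM.

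The rest of the 10 have other roles. Upp1, which breaks down uridine, had 227 CPM in APOE4 and 65.3 CPM in APOE2, 3.48-fold higher [1.99, 6.40]. Tmpo, a protein of the nuclear lamina, had 202 and 69.1 CPM. Usp25, a deubiquitinase, had 161 and 53.8 CPM. Wfdc17, a small secreted protein of activated myeloid cells, had 5269 and 3200 CPM (1275 and 833 UMIs), 1.65-fold higher [1.51, 1.80], and was higher in G-MDSC 1 than in any other of the 26 labels.

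**Figure D3:**
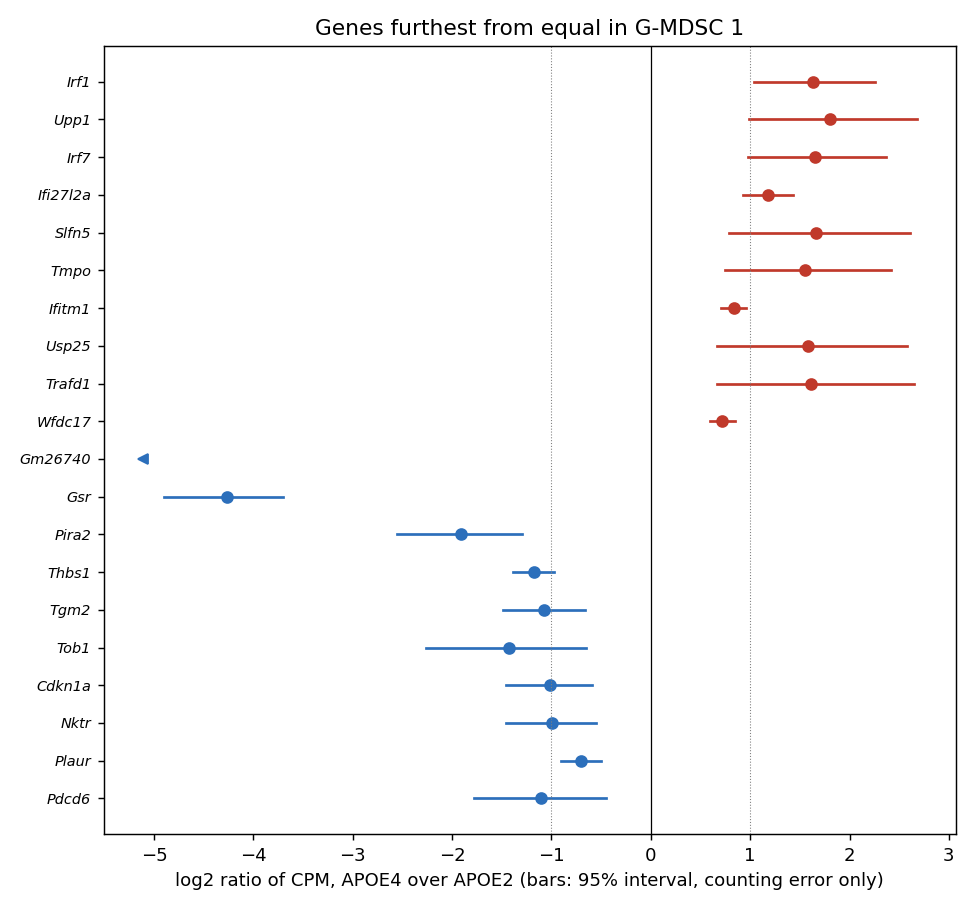
log2 ratio of CPM, APOE4 over APOE2, for the 10 genes ranked furthest above and the 10 furthest below equal in G-MDSC 1, with 95% intervals for counting error. Genes under 10% of the CPM of their highest label were left out of the ranking. The triangle at Gm26740 marks a value set by a floor of 3 counts in APOE4, and dotted lines mark 2-fold.

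The type I interferon list was higher in APOE4. All 22 of its 38 found members with at least 20 UMIs were higher in APOE4, with a median log2 ratio of 0.98, against 1378 of 2656 genes higher and a median of 0.020 over all genes. Of the 14 members with at least 50 UMIs, 5 were at least 2-fold higher, where 1.84% of all genes were. Members that pass the minimum through APOE4 alone had to be higher, such as Ifit1, which detects foreign RNA. Ifit1 had 29 UMIs in APOE4 and 0 in APOE2, 10.4-fold higher by the floor of 3 counts, which is a set value. A sum over all 38 members, which needs no minimum, was 6095 CPM in APOE4 and 3135 CPM in APOE2. The 16 members under the minimum held 77 UMIs in APOE4 and 26 in APOE2.

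Among well-counted members, Isg15, a ubiquitin-like modifier, had 888 CPM in APOE4 and 584 CPM in APOE2, 1.52-fold higher [1.23, 1.89]. Rsad2 (viperin), which blocks viral replication, had 347 and 108 CPM, 3.23-fold higher [2.08, 5.14]. Trim30a, a ubiquitin ligase, had 438 and 384 CPM, a ratio of 1.14 [0.859, 1.51] whose interval includes 1. The receptors were read too thinly to compare: Ifnar1 had 24 and 16 UMIs and Ifnar2 9 and 12.

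The same list gave different sizes in the other labels. Over the 22 members measured in both, the median log2 ratio was 0.98 in G-MDSC 1 and 1.58 in M-MDSC 1, and 16 of the 22 had a ratio closer to 1 in G-MDSC 1. Over 18 members shared with G-MDSC 2 it was 0.87 in G-MDSC 1 and 1.67 in G-MDSC 2. Against M-MDSC 2 the order was the other one, with a median over 22 members of 0.98 in G-MDSC 1, against 0.70 for M-MDSC 2, and 17 had the higher ratio in G-MDSC 1. M-MDSC 2 stood far higher in level in both libraries, where its list summed to 44324 and 32187 CPM, against 6095 and 3135 CPM in G-MDSC 1 and 7920 and 3084 CPM in M-MDSC 1. In APOE2 the sums of G-MDSC 1 and M-MDSC 1 were thus nearly equal, and in APOE4 that of G-MDSC 1 was the lower one. M-MDSC 2 held 190 cells in APOE4 and 36 in APOE2, and how far these genes served to form that label is not known. No test of these differences between labels was possible.

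Interferon gamma genes were read in few molecules. Of 26 found members, 5 had at least 20 UMIs, of which 4 were higher in APOE4 and 1, Cd274, was lower. Their median log2 ratio was 1.52, against 2.13 for the same 5 members in M-MDSC 1 and 1.10 in M-MDSC 2, although 4 of the 5 had the lower ratio in G-MDSC 1 than in M-MDSC 2. Over the 2 members shared with G-MDSC 2 the median was 1.26 in G-MDSC 1 and 0.94 in G-MDSC 2. Gbp2, a guanylate-binding protein that attacks the vacuoles of pathogens, had 202 CPM in APOE4 and 30.7 CPM in APOE2 (49 and 8 UMIs), 6.59-fold higher [3.09, 16.1]. Cxcl10, the T cell attractant of this response, had 2 UMIs in each library, whereas M-MDSC 2 held 3570 CPM of it in APOE4. Over all 26 members the sum was 1079 CPM in APOE4 and 396 CPM in APOE2.

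The sequences before 4 of these genes are shown because they are the interferon list members that stood furthest above equal and hold one of the motifs searched. The motifs were GAAANNGAA, the core of the ISRE, and TTCNNNGAA, the core of GAS, each on both strands, in windows of 250 bases before to 50 after the gene start. The windows come from RefSeq on GRCm38.p6, and matches stand in capitals in the 250 bases before the start, 5′ to 3′ along the gene.
Gbp2, chr3:142620413-142620662, plus strand: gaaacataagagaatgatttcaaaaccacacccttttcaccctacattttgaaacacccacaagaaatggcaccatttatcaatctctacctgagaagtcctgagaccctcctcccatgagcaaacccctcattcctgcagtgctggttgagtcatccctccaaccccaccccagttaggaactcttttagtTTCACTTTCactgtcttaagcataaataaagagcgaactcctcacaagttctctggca
Rsad2, chr12:26456453-26456702, minus strand: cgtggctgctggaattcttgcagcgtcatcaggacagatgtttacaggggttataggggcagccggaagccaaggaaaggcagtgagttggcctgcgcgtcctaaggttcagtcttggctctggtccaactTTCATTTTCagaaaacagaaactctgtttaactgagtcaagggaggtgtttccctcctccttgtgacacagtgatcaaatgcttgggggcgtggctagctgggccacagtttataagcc
Irf1, chr11:53769764-53770013, plus strand: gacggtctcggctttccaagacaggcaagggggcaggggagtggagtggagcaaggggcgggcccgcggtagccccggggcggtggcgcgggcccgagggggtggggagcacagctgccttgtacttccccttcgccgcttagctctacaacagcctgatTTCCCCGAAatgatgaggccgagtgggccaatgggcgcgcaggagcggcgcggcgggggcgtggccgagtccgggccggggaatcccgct
Slfn5, chr11:82951852-82952101, plus strand: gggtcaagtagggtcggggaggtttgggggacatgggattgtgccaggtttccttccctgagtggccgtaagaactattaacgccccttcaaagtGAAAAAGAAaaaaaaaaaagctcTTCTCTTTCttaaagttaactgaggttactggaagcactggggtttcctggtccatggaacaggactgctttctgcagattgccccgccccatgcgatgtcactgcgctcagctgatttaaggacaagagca
The capitals mark an ISRE core starting 58 bases before the start of Gbp2, one 119 bases before that of Rsad2, 2 in Slfn5 from 155 bases before its start, and a GAS core 90 bases before the start of Irf1. No ISRE core overlapped a GAS core in these 4 windows. Of 16 interferon list genes with at least 50 UMIs, 13 had a window, and 7 of the 13 held the ISRE core and 2 the GAS core. Among all 32851 promoter windows of this length, 8.56% held the ISRE core and 8.30% the GAS core. Genes with more than 1 window counted once if any window matched, and a match says only that these letters are present.

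Genes of MHC class I presentation, many of which interferons raise, were also higher. All 13 measured members of 20 were higher in APOE4, with a median log2 ratio of 0.52, against 0.020 over all genes. Here too the minimum of 20 UMIs favours members that pass it through the library where they are high. A sum over all 20 members, which needs no minimum, was 7389 CPM in APOE4 and 5508 CPM in APOE2. Of the 7 members with at least 50 UMIs, 0 were at least 2-fold higher. H2-K1, a class I heavy chain, had 1169 CPM in APOE4 and 668 CPM in APOE2, 1.75-fold higher [1.44, 2.13], and H2-D1, the other main heavy chain, had 3182 and 2677 CPM, 1.19-fold higher [1.07, 1.32]. B2m, the shared light chain, had 1413 and 1079 CPM, 1.31-fold higher. Psmb9, an immunoproteasome subunit, had 186 and 96.0 CPM. The same 13 members had medians of 1.54 in M-MDSC 1, 1.23 in M-MDSC 2 and 0.89 in G-MDSC 2, and 12, 11 and 10 of them had a ratio closer to 1 in G-MDSC 1. MHC class II genes were read at 9 to 33 UMIs per member and library with 2 members higher and 4 lower.

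**Figure D4:**
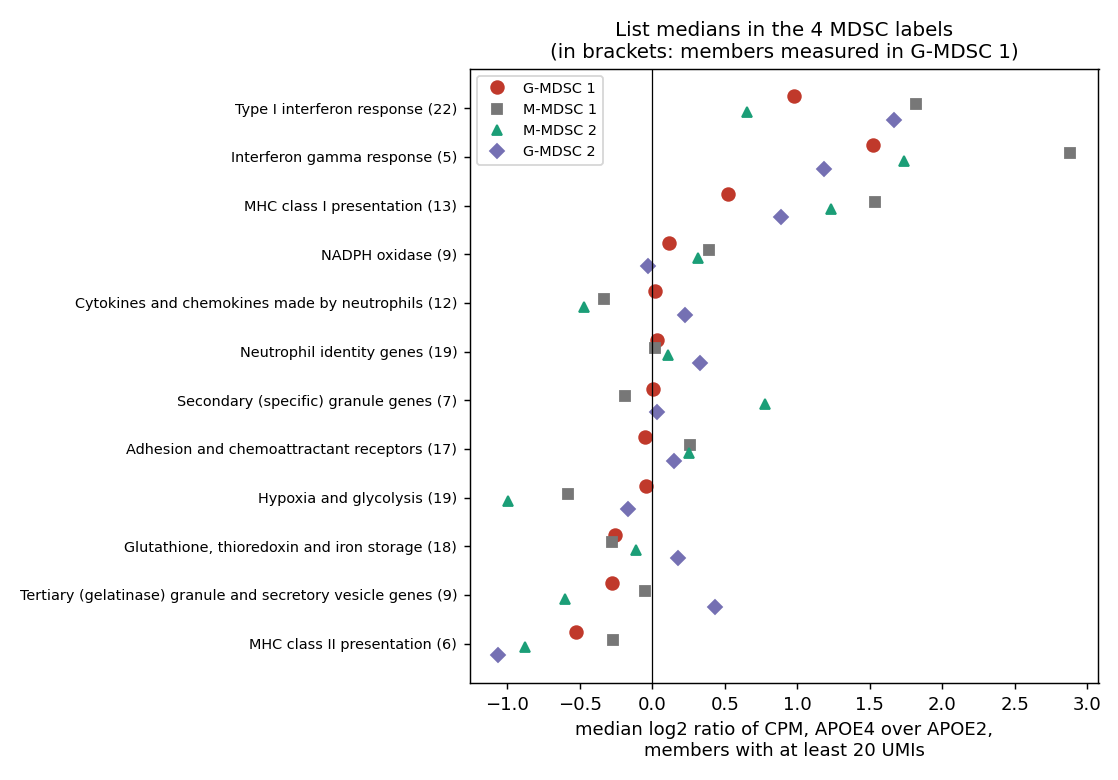
Median log2 ratio of CPM, APOE4 over APOE2, of the members with at least 20 UMIs of 12 gene lists, for G-MDSC 1 (red circles), M-MDSC 1 (squares), M-MDSC 2 (triangles) and G-MDSC 2 (diamonds). For the type I interferon list G-MDSC 1 is at 0.98, and for hypoxia and glycolysis it is at -0.045, where M-MDSC 1 is at -0.58 and M-MDSC 2 at -0.99.

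Single cells showed the interferon difference at each quartile. With each cell thinned to 1000 UMIs, which kept 124 of 126 APOE4 cells and 137 of 146 APOE2 cells, the type I list gave a median of 4 UMIs per cell in APOE4 and 2 in APOE2. The lower quartile was 2 and 1, the upper quartile 8 and 4, and the highest cell 35 and 16. The M-MDSC 1 cells had medians of 7 and 2 UMIs, and the M-MDSC 2 cells of 41 and 27.

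**Figure D5:**
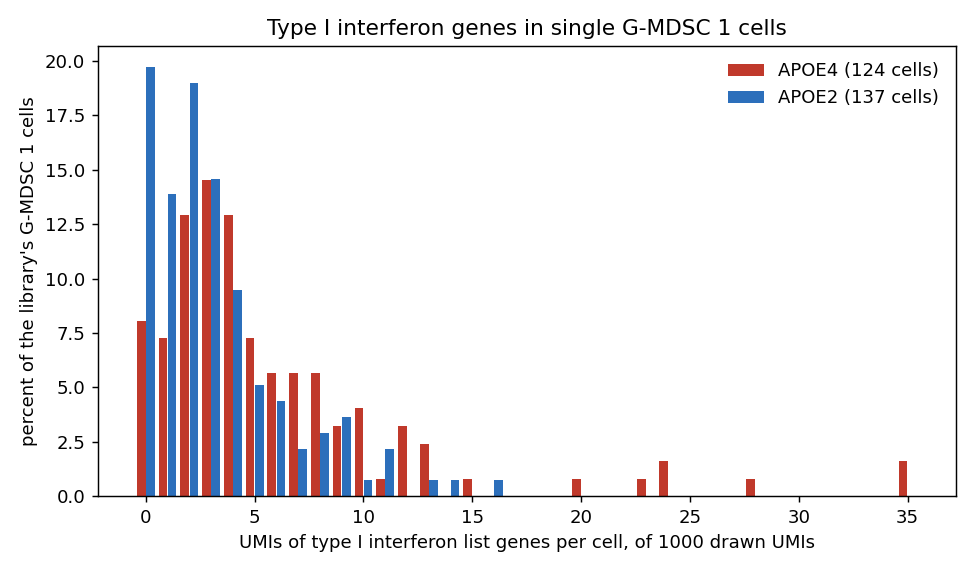
Percent of G-MDSC 1 cells by the number of type I interferon list UMIs among 1000 drawn per cell, red for 124 APOE4 cells and blue for 137 APOE2 cells. APOE2 cells end at 16 UMIs and the APOE4 cells reach 35.

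On the lower side, Gsr and the antisense gene Gm26740 stood far from all other genes. Gsr, glutathione reductase, which restores the glutathione that neutrophils use against their own oxidants, had 107 CPM in APOE4 and 2070 CPM in APOE2 (26 and 539 UMIs), 19.3-fold lower, a ratio of 0.0519 [0.0336, 0.0769]. It lies on chromosome 8 from 33652523 to 33698163 on the plus strand of mm10 and is protein-coding. It was lower in APOE4 in the other MDSC labels too, at 71.4 and 1086 CPM in M-MDSC 1, 27.8 and 1026 CPM in M-MDSC 2 and 143 and 867 CPM in G-MDSC 2. Gm26740 had 0 UMIs in APOE4 and 112 UMIs in APOE2, at least 34.7-fold lower by the floor of 3 counts per library. It is annotated as antisense on chromosome 10 from 22187013 to 22302835 on the minus strand, and the genes it overlaps on the plus strand include H60b and Raet1e, which had 0 UMIs in G-MDSC 1. It too was at 0 UMIs in APOE4 in the other 3 MDSC labels, against 229, 10 and 24 UMIs in APOE2. The same held outside these labels: in the T, NK, NKT and B cell labels together Gm26740 was at 0 CPM in APOE4 and 190 CPM in APOE2. There it was found in 0% and 47.3% of cells.

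The other genes of the 10 furthest below equal by the same ranking differed less. The 10% rule left out Cxcl3, which is given below. Pira2, an activating immunoglobulin-like receptor, had 116 CPM in APOE4 and 434 CPM in APOE2, 3.75-fold lower, while its inhibitory partner Pirb had 475 and 469 CPM. Pira2 belongs to a family of near-identical genes, so its reads may be split among copies. Thbs1 (thrombospondin 1), a matrix protein that activates TGF-beta, had 1141 and 2585 CPM (276 and 673 UMIs), 2.27-fold lower. Tgm2, a protein cross-linking enzyme, had 302 and 634 CPM, 2.10-fold lower. Tob1 and Cdkn1a, which restrain proliferation, had 78.5 and 211 CPM and 277 and 561 CPM. Plaur, the urokinase receptor, had 1322 and 2155 CPM, 1.63-fold lower. Nktr, a cyclophilin-related protein, had 252 and 503 CPM, and Pdcd6, a calcium-binding protein of vesicle traffic, had 120 and 257 CPM.

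Of the 18 measured redox genes, Gsr included, 6 were higher and 12 lower in APOE4, with a median log2 ratio of -0.26. Slc7a11, the cystine importer for glutathione synthesis, had 2636 CPM in APOE4 and 3369 CPM in APOE2, a ratio of 0.783 [0.706, 0.868]. Gpx1, a glutathione peroxidase, was on the other side, at 731 and 480 CPM, 1.52-fold higher [1.20, 1.93]. Fth1, the ferritin heavy chain that stores iron, had 15625 and 20697 CPM, a ratio of 0.755 [0.724, 0.787].

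Neutrophil identity and granule genes differed in both directions. The 19 measured neutrophil identity genes had 11 members higher and 8 lower and a median of 0.034. Within them Pglyrp1, which binds bacterial peptidoglycan, had 1587 CPM in APOE4 and 968 CPM in APOE2, 1.64-fold higher [1.39, 1.93], and Il1r2, the decoy receptor for interleukin 1, had 1401 and 1725 CPM, a ratio of 0.812 [0.703, 0.937]. The 7 measured secondary granule genes had a median of 0.0050, though Mmp8, neutrophil collagenase, had 723 and 419 CPM, 1.73-fold higher [1.35, 2.21]. Of the 9 measured tertiary granule and secretory vesicle genes, 8 were lower, with a median of -0.28, where 1278 of 2656 genes were lower. Adam8, a sheddase, had a ratio of 0.722 [0.606, 0.858] and Cd14, the co-receptor for endotoxin, 0.724 [0.647, 0.809]. The 17 adhesion and chemoattractant receptors had 8 higher and 9 lower, and the 9 NADPH oxidase genes, which make the oxidative burst, 6 higher and 3 lower. Among transcription factors, Cebpb, which drives emergency granulopoiesis, had 7773 and 10494 CPM, a ratio of 0.741 [0.698, 0.786].

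Cytokine genes went both ways, with 6 of 12 measured members higher and 6 lower. Cxcl3, a ligand of Cxcr2, had 57.9 CPM in APOE4 and 181 CPM in APOE2 (14 and 47 UMIs), a ratio of 0.320 [0.163, 0.592], and Cxcl2, another ligand, a ratio of 0.700 [0.655, 0.748]. Il1b had a ratio of 1.08 [1.04, 1.13]. Ccl4, an attractant of T cells and monocytes, had 517 and 807 CPM. In M-MDSC 1 Cxcl3 stood at 922 and 4833 CPM.

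Hypoxia and glycolysis genes did not move together in G-MDSC 1, with 9 of 19 measured members higher and 10 lower and a median log2 ratio of -0.045. For the same 19 members the median was -0.47 in M-MDSC 1 and -0.71 in M-MDSC 2, and 14 and 16 of them had a ratio closer to 1 in G-MDSC 1. Ldha, which makes lactate, had 285 CPM in APOE4 and 311 CPM in APOE2, against 508 and 1033 CPM in M-MDSC 1. Hilpda, a lipid droplet protein induced by hypoxia, differed from the other members, with 7 UMIs in APOE4 and 41 in APOE2, a ratio of 0.184 [0.0695, 0.413]. Among receptors that bind APOE, Lrp8, Vldlr, Trem2 and Scarb1 had 0 UMIs in both libraries, and Lrp1 had 1 and 6. Sorl1, another such receptor, was at 1145 and 1287 CPM, a ratio of 0.890 [0.756, 1.05].

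Of the 4 measured monocyte markers, 1 was at least 2-fold higher in APOE4, where 105 of 2656 genes with at least 20 UMIs were. Of these markers 2 were higher and 2 lower, with a median log2 ratio of 0.21. Ly6c2, a surface antigen of inflammatory monocytes, had 393 CPM in APOE4 and 84.5 CPM in APOE2 (95 and 22 UMIs), 4.65-fold higher [2.90, 7.76], while Ccr2 had 0 and 1 UMI and Csf1r 107 and 108 CPM. Ly6c2 was not confined to monocytes, and was higher in APOE4 in other labels too. It was at 1828 and 787 CPM in CD8+ T cells and 1608 and 883 CPM in G-MDSC 2. What part monocyte RNA has in the interferon result was not tested. Every cell with a UMI of a T, NK, B, macrophage, dendritic or mast cell marker was then left out, but none for a monocyte marker. On the 86 and 94 cells left, the type I list median was 1.26 and the log2 ratio of Ly6c2 was 2.09. That median is over the members that still had at least 20 UMIs, so its members can differ from those of the main median. Without the 10% of cells with the highest doublet score the log2 ratio of Ly6c2 was 1.63.

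Within each library, variation among cells was ranked by the ratio of variance to mean, which also depends on a gene's level. Among genes with a mean of at least 0.2 UMIs in thinned cells, the 10 with the highest ratio of variance to mean, taking the lower of a gene's values in the libraries, were S100a9, S100a8, Ccl4, Retnlg, Fth1, Wfdc17, Cxcl2, G0s2, Ifitm1 and Thbs1, against a median ratio over 601 genes of 1.15 in APOE4 and 1.14 in APOE2. S100a9 ran from 5 to 180 UMIs of 1000 per cell in APOE4 and from 3 to 160 in APOE2, with medians of 65 and 72. Retnlg ran from 0 to 40 and from 0 to 50, with medians of 3 and 5. Ccl4 sat in few cells, with a median and an upper quartile of 0 in both libraries and highest values of 21 and 46 UMIs. Thbs1 had medians of 0 and 1 and upper quartiles of 1.25 and 4, and Wfdc17 medians of 2 and 1 and upper quartiles of 7.25 and 4, so both differences between the libraries reached past a few extreme cells.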

How the data were processed

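Both libraries came from pooled, sorted cells on 3' v3 droplet chemistry, per the labels. The authors' deposited matrices give whole-number UMI counts, made with Cell Ranger 3.0.1, per the file headers, on mm10, per the submitters' processing notes. The authors' deposited cell table, made with Seurat 3.0.2 per the same notes, gives each cell's name and the percent of mitochondrial UMIs. The sources used here do not say how cells were named, whether counting used strand or whether doublets were removed.

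UMIs were summed per label and library and scaled to CPM. Ratios carry exact conditional binomial 95% intervals, and shares exact Clopper-Pearson ones. Genes needed 50 UMIs over both libraries, list members 20, and a call was 2-fold. A library with 0 UMIs was set to 3 counts. Single-cell values used cells thinned to 1000 UMIs (seed 0). Genes were named by rule: the given markers, the 10 highest and 10 lowest ratios by the bound nearest 1 (with a CPM at least 10% of the highest label's), the 10 highest and lowest against the other 3 labels, each list's best counted and most extreme members, and the 10 most variable genes. Further list members and Pirb were named after their values were seen. Scrublet's own threshold marked 3 of 5385 and 0 of 4665 cells and so was not used. Its scores served only to leave out the 10% of highest score. The ratio functions were tested on simulated data. The members and the 38 gene lists were chosen with earlier results of these data known. Of 27998 gene IDs, 99.0% matched GENCODE M21, the source of positions. Tools were Python 3.11.15, numpy 2.4.6, scipy 1.17.1, pandas 2.3.3 and scanpy 1.11.5.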

Additional observations from a re-analysis of the deposited data

Results flagged for a closer look

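Among the genes named for their ratio between the libraries, Upp1 and Pdcd6 lay on opposite sides of 1 in G-MDSC 1 and M-MDSC 1, with both intervals clear of 1. Upp1 had a ratio of 3.48 [1.99, 6.40] in G-MDSC 1 (55 and 17 UMIs) and of 0.606 [0.521, 0.704] in M-MDSC 1 (272 and 496 UMIs), APOE4 over APOE2. Pdcd6 had a ratio of 0.466 [0.290, 0.730] in G-MDSC 1 and of 1.44 [1.09, 1.90] in M-MDSC 1. The difference between the labels was not tested, since each genotype has 1 library. Over all 1287 genes with at least 50 UMIs in both labels, 20 (1.55%) were on opposite sides in this way.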

How the results depend on the processing

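The number of genes at least 2-fold apart depended on the minimum count. It was 25 higher and 13 lower in APOE4 with 50 UMIs, 105 and 79 with 20 UMIs, 1705 and 1396 with 1 UMI, and 8 and 6 with 100 UMIs, and 9 genes were higher after thinning cells to 1000 UMIs. Against the other labels, 13 genes in place of 31 were lower with a minimum of 100 UMIs. Thinning brought the type I interferon median to 0.76, and over its other alternatives it ran between 0.84 and 1.33. Each of these medians is over the members that passed the minimum in that setting, so the members can differ between them. The median of cytosolic ribosomal genes, -0.11, turned to 0.035 without the 10% of cells with the highest doublet score. Of cells under 5% mitochondrial UMIs, G-MDSC 1 made 2.80% in APOE4 and 4.16% in APOE2. That cut kept 126 of 126 and 145 of 146 G-MDSC 1 cells, so these shares rose because cells of other labels left the total. For 35 single genes under 7 alternatives each (245 values), 234 stayed within their interval and 11 left it. After thinning, Lrg1 and Nlrp12, whose intervals include equal levels, had log2 ratios of 0.00034 and 0.015, in place of -0.071 and -0.14. The cause of the other shifts was not tested, except that a higher minimum tests fewer genes and thinning lowers the counts that must reach it. No paired analysis was possible because each genotype has 1 library, for which reason no replicate could be left out either. Depth limits what can be seen: 1360 of 8799 genes detected in the label had 50 UMIs.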

Other observations

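Of the barcodes outside the annotation, 304 in APOE4 and 398 in APOE2, 2 and 4 had at least 5% of their UMIs from S100a8 and S100a9. Their medians were 2255.5 and 1878.5 UMIs, with 23.6% and 17.3% from mitochondrial genes.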
